A study of Saccharomyces cerevisiae with 36 samples.

Results

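Introns of 47 budding yeast genes that encode proteins of the large ribosomal subunit were followed in 18 mutants of mRNA processing. The genes were all those whose array symbol is RPL followed by a digit, except RPL7A, RPL7B, RPL20B, RPL22B, RPL28, RPL30 and RPL42B. That rule is written in names alone, though members were chosen with earlier results of these data known. It kept 47 of 54 such genes and of the 230 genes with a symbol on the array. All 47 were found under the same symbol in the gene table. They comprise 22 A copies, 21 B copies and the 4 single-copy genes RPL25, RPL29, RPL32 and RPL39. Both copies of 20 pairs were among them. The partners of RPL18B, RPL22A and RPL42A were not, so these are described alone.

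The large subunit carries the peptidyl transferase centre, where amino acids are joined, and the tunnel through which the new protein leaves. Most yeast genes lack introns, but ribosomal protein genes often have one, and they are transcribed so heavily that they make up a large part of all work done by the spliceosome. Most ribosomal proteins are encoded by a pair of genes left by an ancient genome duplication. The coding parts of such copies are nearly identical, whereas their introns have diverged, so an intron probe can tell copies apart better than an exon probe.

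The 18 mutants were each compared with a wild type on 2 two-colour arrays with exchanged channels, 36 arrays in all. In 16 deletion strains and their BY4741 wild type (brr1, cus2, ecm2, gcr3, hsp104, msl1, mud1, mud13, mud2, nam8, prp17, prp18, snu17, snu40, snu66 and upf3), cells grew at 26 °C. The temperature-sensitive strain prp4-1a and its parent SS330 were held 2 h at 37 °C after growth at 26 °C. For dbr1 and its unnamed wild type the labels describe a pool of RNA from haploid and diploid cells, with dividing and sporulating cultures, so growth state was mixed there by design. Among meiotic genes, 0 of 7 tested exon probes rose in dbr1 (limma; background 2.65% of all exon probes) and 2 fell (background 1.77%), PCH2 by 0.67 ± 0.15 and HOP2 by 0.44 ± 0.13.

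Each gene had a junction probe across the spliced exons, an intron probe and an exon probe, in roles inferred from the order of probes. The deposited values are log2 ratios. Subtracting the exon probe from the intron probe on the same array gives the intron index, a measure of retained or excised intron per RNA of its gene. Subtracting it from the junction probe gives the junction index, a measure of spliced RNA. Scaling of an array cancels in both. A feature is said to rise or fall where limma gave an adjusted p under 0.05 over all features tested in that mutant, and errors are standard errors from that fit with n = 2 arrays. The sources do not say whether both arrays of a mutant stem from separate cultures. The p-values therefore cover array-to-array spread alone, and part of it may be technical. The first array of a mutant is the one with the mutant in channel 2.

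Ratios are given as mutant over wild type. The labels do not settle their direction, and channel 2 over channel 1 was taken as the likely one. It rests on deleted genes with probes of their own: the MUD1 exon probe stood at −2.49 and −2.63 in mud1, and the STO1 exon probe at −5.81 and −5.37 in gcr3, the strain that lacks STO1. With the mutant in channel 2, 4 of 153 pairs of arrays correlated below −0.3 over all probes (lowest −0.431, prp4-1a with hsp104), and 0 did in the other orientation. Were the sign turned, every rise given here would be a fall of the same size and adjusted p, and both deleted genes would be higher where they are missing. The 2 arrays of prp4-1a lay 9.09 times as far apart at these introns as those of the median mutant, those of mud13 4.37 times, those of dbr1 3.26 times and those of snu66 2.78 times, so errors given for them are too small. All mutants share 1 spread per feature, so errors are too large where arrays lay closer, as in mud1 (0.569 times), mud2 (0.599) and snu40 (0.632). Counts with arrays weighted by spread are given below without a background over all features. Which probes lay above background cannot be read from log ratios.

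Introns of large subunit genes rose in nearly all members in prp4-1a, dbr1, snu17, brr1, snu66 and msl1. They rose in a majority in prp18, gcr3 and mud13, in fewer in upf3, mud2 and prp17, and in 1 or none in mud1, snu40, hsp104, cus2, ecm2 and nam8. Outside prp4-1a and dbr1, the highest median intron index of the members was 1.46, in snu17. The medians of snu17 (1.46), brr1 (1.20), snu66 (1.16) and msl1 (1.15) follow each other closely, and their ranges over members overlap throughout. The same holds for prp18 (1.00), gcr3 (0.78) and mud13 (0.64). Counts of members are given beside those of all introns on the array, since several strains raised nearly every intron.

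**Figure D1:**
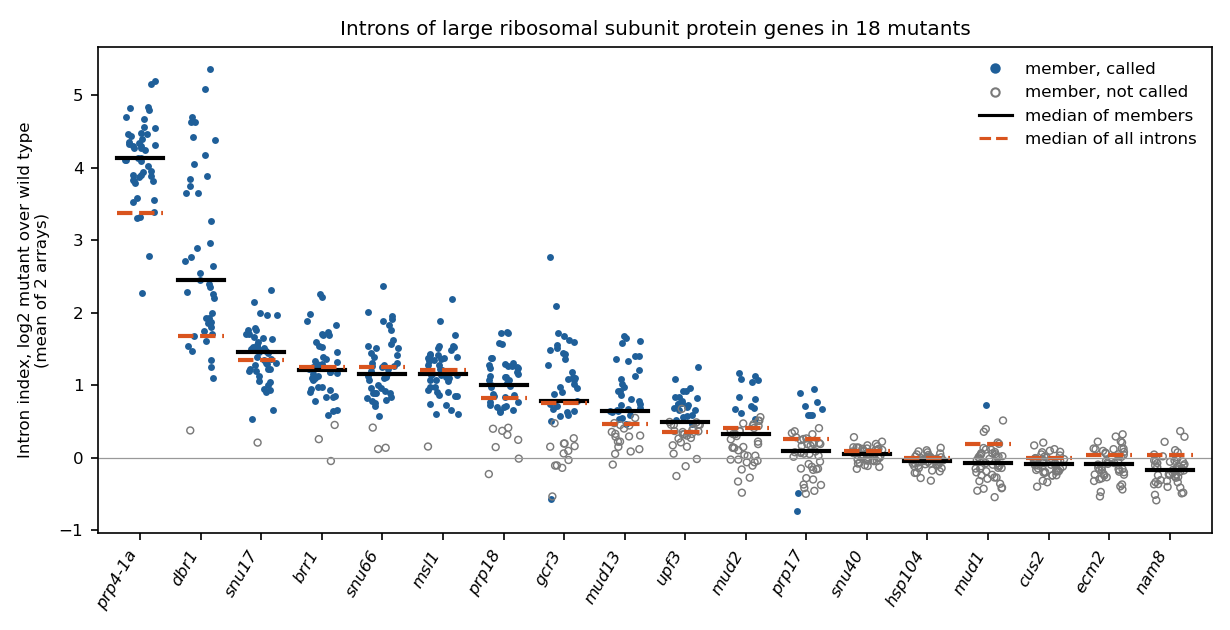
Intron index (log2 mutant over wild type, mean of 2 arrays) of each member in each mutant. Filled points passed the test and open points did not; the solid bar is the median of the members and the dashed bar that of all introns tested. In prp4-1a all 47 points lie above 2, and in hsp104 all lie between −0.32 and 0.14.

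Prp4 is a protein of the U4/U6 snRNP, which carries the catalytic U6 RNA into the spliceosome. In prp4-1a all 47 member introns rose, against a background of 97.2% of all tested introns, with a median index of 4.14 beside 3.37 over all introns and 3.94 over introns of small subunit genes. RPL29, whose protein is not essential in yeast, read 5.36 and 5.04 on the 2 arrays (5.20 ± 0.22, 36.7-fold, adjusted p = 5.72e-18). RPL43B read 5.60 and 4.71 (5.16 ± 0.20) and RPL19B 5.91 and 3.76 (4.84 ± 0.28). The exon probe of RPL29 was the lowest of all members at −4.24 and −3.69, and its intron probe alone stood at 1.23 ± 0.15. At the other end were RPL18B with 2.50 and 2.06 (2.28 ± 0.21) and RPL22A with 3.57 and 1.99 (2.78 ± 0.24). Both arrays of each of these genes lay far above the hsp104 arrays, on which member introns ranged from −0.38 to 0.26.

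The index in prp4-1a joins a rise at the intron with a fall at the exon. The intron probes of the members had a median of 1.80, beside 1.88 over all intron probes, and 46 of 47 rose (97.9%, background 93.7%). Their exon probes had a median of −2.36 and all 47 fell, against 76.2% of all exon probes. RPL29 (−3.96 ± 0.18) and RPL34B (−3.37 and −2.65; −3.01 ± 0.15) fell most. RPL17A (−1.49 ± 0.12) and RPL27A (−2.53 and −0.71; −1.62 ± 0.20) fell least. All exon probes had a median of −1.24, so the members stood below it also with each array centred on its exon probes, where 47 members still fell. These are bulk samples, in which less RNA per cell and fewer cells that make it cannot be told apart.

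At the junctions too nearly every member was lower in prp4-1a. The junction probe fell in 46 of 47 members (97.9%, background 81.9%) with a median of −2.77, beside −1.77 over all junction probes. Relative to the exon probe, 26 junctions fell (55.3%, background 54.7%) and 8 rose (17%, background 16.5%). Both RPL40 copies, which encode a ribosomal protein made as a fusion with ubiquitin, were lowest. RPL40A read −1.56 and −1.06 (−1.31 ± 0.10, adjusted p = 3.91e-11) and RPL40B −1.06 and −1.22 (−1.14 ± 0.13). The highest junction index, looked up after the values were seen, was that of RPL26B at 1.99 and 2.37 (2.18 ± 0.10). The RPL26B junction probe itself stood at 0.11 ± 0.14 while its exon probe stood at −2.07 ± 0.14. It is the member whose junction probe did not fall, and whether that probe reads the spliced junction was not tested. With arrays weighted by the spread within each mutant, 5 member junctions fell.

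Dbr1 opens the branched lariat that an excised intron forms, so that the intron can be degraded, and cells that lack it are known to store lariats. In dbr1 the introns rose in 42 of 43 members (97.7%, background 81.6%), with a median index of 2.46 beside 1.68 over all introns. Members spread more widely than in any other mutant, from 0.37 to 5.36. RPL27B led with 5.78 and 4.94 (5.36 ± 0.20, 41-fold, adjusted p = 3.29e-19). It was followed by RPL24A with 4.96 and 5.20 (5.08 ± 0.20) and RPL26B with 4.77 and 4.63 (4.70 ± 0.21). The lowest among raised introns were RPL31B with 0.57 and 1.64 (1.10 ± 0.16) and RPL40B with 0.60 and 1.88 (1.24 ± 0.24).

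RPL43B was the member intron that did not pass in dbr1. It read 0.28 and 0.47 there (0.37 ± 0.20, adjusted p = 0.0822), although it was second highest in prp4-1a. Over the 43 members tested in both strains the index of dbr1 and that of prp4-1a had a correlation of −0.108, given as a description across introns of different strains and wild types. Among these members, 10 stood higher in dbr1 than in prp4-1a. RPL2A, RPL17A, RPL34A and RPL36B could not be tested in dbr1. RPL2A was measured on 1 array of dbr1, where it read 0.65.

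No exon probe or junction index of a member passed the test in dbr1. Limma called 0 of 47 exon probes (background 4.42% of all exon probes) and 0 of 47 junctions (background 0.455% of all junctions). At an unadjusted p under 0.05, 9 exon probes were up and 1 down, beside 45 and 12 of 226 over all exon probes. At that p 4 junctions were up and 2 down, beside 11 and 14 of 220 over all junctions. The median exon probe of the members stood at 0.19, beside 0.10 over all exon probes. The high intron indices of dbr1 are therefore values of the intron probes, which had a median of 2.61.

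Nearly all member introns rose, by a moderate amount, in 4 deletions of snRNP or U2-associated factors. The RES complex loses a protein in snu17, and there 46 of 47 rose (background 94.2%). Brr1 is needed to make snRNPs, and in brr1 44 of 47 rose (93.6%, background 94.3%). In snu66, which lacks a protein of the U4/U6.U5 tri-snRNP, 44 of 47 rose (93.6%, background 92.6%). Msl1 is the U2 snRNP protein U2B'', and in msl1 44 of 45 rose (97.8%, background 94.3%). These shares lie near the background, and member medians lay within 0.15 of those of all introns, 1.35 in snu17, 1.25 in brr1, 1.25 in snu66 and 1.21 in msl1.

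The same few members led these strains. RPL43B, which encodes a zinc-binding protein of the subunit, read 2.23 and 2.40 in snu17 (2.31 ± 0.20, adjusted p = 1.62e-10). It read 2.20 and 2.31 in brr1 (2.25 ± 0.20), 1.98 and 2.03 in snu66 (2.00 ± 0.20) and 1.32 and 2.05 in msl1 (1.69 ± 0.20). RPL16A was among the 3 highest in snu17 (2.25 and 2.05; 2.15 ± 0.21), brr1 (2.18 and 2.25; 2.21 ± 0.21) and msl1 (1.75 and 2.62; 2.19 ± 0.21). The other leaders were RPL35B in snu17 (1.99 ± 0.19), RPL17A in brr1 (1.98 ± 0.19) and snu66 (1.96 ± 0.19), RPL32 in msl1 (1.88 ± 0.26) and RPL39 in snu66, with 2.36 and 2.38 (2.37 ± 0.19). RPL17, RPL35 and RPL39 encode proteins of the exit tunnel or of its rim.

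At the low end, RPL18B did not pass in any of these 4 strains, with −0.05 ± 0.21 in brr1, 0.15 ± 0.21 in msl1, 0.21 ± 0.21 in snu17 and 0.12 ± 0.21 in snu66. The lowest introns that did rise were RPL24B in snu17 (0.54 ± 0.20) and snu66 (0.58 ± 0.20), RPL21B in snu17 (0.66 ± 0.23), RPL13B (0.58 ± 0.24) and RPL27B (0.65 ± 0.20) in brr1, RPL42A in snu66 (0.71 ± 0.27) and RPL37A (0.59 ± 0.18) and RPL23A (0.60 ± 0.28) in msl1. Compared directly, snu66 and snu17 differed at 1 of 47 member introns, against 9.23% of all introns. That intron was RPL27B, whose protein lies in the body of the subunit. It read 0.46 and −0.19 in snu66 and 1.31 and 1.66 in snu17, a difference of −1.35 ± 0.28 (adjusted p = 0.00246). The 2 strains do not overlap there, but the call was lost without the second array of snu66 or without the second array of snu17. The members called were 10 with the intron probe alone and 4 with arrays weighted by spread.

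Prp17 and Prp18 act in the second catalytic step, in which the exons are joined. In prp18 39 of 47 member introns rose (83%, background 74.9%) with a median of 1.00, beside 0.83 over all introns. In prp17 8 rose (17%, background 30.9%) and 2 fell (4.26%, background 5.8%), with a median of 0.08 beside 0.26. Compared directly, 25 of 47 introns were higher in prp18 and 0 were lower (limma; 0 lower also at an unadjusted p under 0.05), with 36.4% of all introns called. The count was 16 without the first array of prp18, 3 without the second, 9 without the first array of prp17 and 2 without the second. It was 43 with arrays weighted by the spread within each mutant.

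RPL17B led in prp18 with 1.85 and 1.60 (1.73 ± 0.15, adjusted p = 3.38e-10). RPL17B read 0.26 and 0.25 in prp17, so the strains do not overlap and differ by 1.47 ± 0.21. RPL24A read 1.07 and 1.18 in prp18 and −0.27 and −0.30 in prp17, a difference of 1.41 ± 0.28. RPL23B read 0.92 and 1.64 and 0.01 and 0.09, a difference of 1.23 ± 0.34. RPL24 contributes to a bridge to the small subunit, and RPL23 is the protein that the antiassociation factor eIF6 binds. RPL32 (1.27 and 2.18; 1.72 ± 0.26) and the single-copy gene RPL25 (1.45 and 1.98; 1.71 ± 0.21) stood beside RPL17B in prp18. The lowest introns that rose there were RPL37B (0.63 ± 0.24) and RPL35B (0.65 ± 0.19).

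In prp17 the introns that rose most were RPL17A (0.83 and 1.06; 0.94 ± 0.19), RPL43A (0.88 and 0.91; 0.89 ± 0.21) and RPL32 (0.54 and 0.98; 0.76 ± 0.26). RPL6B fell with −0.69 and −0.79 (−0.74 ± 0.22, adjusted p = 0.0113) and RPL37A with −0.59 and −0.39 (−0.49 ± 0.18). At the intron probe alone 12 members fell (25.5%, background 17.2%) and 2 rose (4.26%, background 26.3%). Without the first or the second array of prp17, 1 and 2 introns rose and 0 fell (limma). With arrays weighted by spread, 14 rose and 9 fell.

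Exon probes of the members were lower in both second-step mutants. In prp18, 41 of 47 fell (87.2%, background 44.8%) with a median of −0.53, beside −0.21 over all exon probes. RPL16A (−0.65 and −1.16; −0.90 ± 0.11) and RPL19A (−1.02 and −0.63; −0.83 ± 0.12) were lowest, and RPL2B (−0.27 ± 0.10) and RPL34A (−0.33 ± 0.14) were the mildest falls. The count was 34 with each array centred on its exon probes and 19 without the second array. In prp17, 26 fell (55.3%, background 41.3%), led by RPL16A (−0.77 and −0.74; −0.75 ± 0.11) and RPL25 (−0.59 ± 0.11), with RPL17B (−0.27 ± 0.11) and RPL6B (−0.29 ± 0.12) mildest. There the count rests on the deposited scale, since all exon probes had a median of −0.26 and 3 members fell after centring on it. It was 3 and 10 without the first and the second array.

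Junctions fell at 6 of 45 members in prp18 (13.3%, background 23.7%) and at 4 of 47 in prp17 (8.51%, background 18.1%). RPL32, the gene of a single-copy protein of the subunit, read −0.42 and −0.53 in prp18 (−0.47 ± 0.13) and −0.24 and −0.50 in prp17 (−0.37 ± 0.13). RPL40B in prp18 (−0.36 ± 0.13) and RPL22A in prp17 (−0.36 ± 0.10) were next. These counts fell to 0 and 2 in prp18 and to 0 and 0 in prp17 without the first and the second array (limma), and rose to 16 and 19 with arrays weighted by spread.

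The nuclear cap-binding complex holds the capped start of a new transcript and helps the U1 snRNP to reach the first splice site. Its large subunit is missing in gcr3 and its small subunit in mud13. In gcr3 33 of 47 member introns rose (70.2%, background 66.4%) and 1 fell (2.13%, background 1.87%). In mud13 30 rose (63.8%, background 50.2%) while no intron fell (0 by limma, and 0 at an unadjusted p under 0.05). Medians were 0.78 and 0.64, beside 0.75 and 0.46 over all introns. The gcr3 count was 18 without the second array, and the single fall was lost without the first. The mud13 count was 13 without the first array, 14 with arrays weighted by spread and 19 with hsp104 in place of the wild type.

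RPL16A had the highest intron index of gcr3, at 2.46 and 3.07 (2.77 ± 0.21, 6.8-fold, adjusted p = 2.19e-11). Its exon probe was the lowest of the members there (−1.48 and −1.81; −1.65 ± 0.11), and its intron probe alone stood at 1.12 ± 0.18. RPL26B followed with 1.80 and 2.38 (2.09 ± 0.21) and RPL33B with 1.36 and 2.07 (1.72 ± 0.18). RPL17A fell, with −0.96 and −0.19 (−0.58 ± 0.19). The lowest intron that rose was RPL16B (0.13 and 0.89; 0.51 ± 0.21).

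In mud13, RPL26B read 1.91 and 1.44 (1.68 ± 0.21), RPL16A 1.36 and 1.94 (1.65 ± 0.21) and RPL29 2.04 and 1.18 (1.61 ± 0.22). The lowest that rose there were RPL37A (0.46 ± 0.18), which turned to −0.031 without the first array, and RPL36B (0.54 ± 0.21). Compared directly, gcr3 and mud13 differed at RPL16A alone among 47 members, by 1.11 ± 0.30 (adjusted p = 0.0147), while 11.8% of all introns differed. The members called were 1, 0, 3 and 2 without the first or second array of gcr3 and the first or second array of mud13. With the intron probe alone, with no dye term or with arrays weighted by spread, 0 members differed (limma; 2 at an unadjusted p under 0.05 in the fit reported).

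Exon probes fell at 26 of 47 members in gcr3 (55.3%, background 50%) and at 22 in mud13 (46.8%, background 44.4%). RPL16A was lowest in both, with −0.63 and −0.98 in mud13 (−0.81 ± 0.11). RPL13A (−0.85 ± 0.14) followed in gcr3 and RPL26B (−0.68 ± 0.14) in mud13. The mildest falls were RPL35A (−0.33 ± 0.12) and RPL25 (−0.34 ± 0.11) in gcr3, and RPL2B (−0.35 ± 0.10) and RPL35A (−0.38 ± 0.12) in mud13. With arrays centred on their exon probes, 11 and 6 members fell. The gcr3 count was 9 without the second array, and the mud13 count was 7 without the first, 38 without the second and 0 with arrays weighted by spread. At junctions 7 of 46 members fell in gcr3 (15.2%, background 12.8%), with RPL6A (−0.65 and −0.61; −0.63 ± 0.19) and RPL32 (−0.43 and −0.58; −0.50 ± 0.13) lowest, and the count was 0 without either array, 2 without the dye term and 27 with arrays weighted by spread (limma).

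Upf3 belongs to the nonsense-mediated decay pathway, which degrades cytoplasmic RNA with an early stop codon, as unspliced transcripts often have. In upf3 22 of 47 member introns rose (46.8%, background 36.7%) with a median of 0.49, beside 0.35 over all introns. Both copies of RPL35, which encode a protein at the rim of the exit tunnel, were highest. RPL35B read 1.18 and 1.31 (1.25 ± 0.19, adjusted p = 2.55e-05) and RPL35A 0.96 and 1.20 (1.08 ± 0.19). RPL24B came next with 1.10 and 0.82 (0.96 ± 0.20), and RPL31B (0.47 ± 0.16) and RPL26B (0.52 ± 0.21) were the lowest that rose. The number of raised introns depended on the arrays, at 8 without the first, 4 without the second, 40 with arrays weighted by spread and 9 against hsp104.

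Mud2 helps to recognise the branch point, and Mud1 and Nam8 are proteins of the U1 snRNP. In mud2 12 of 47 member introns rose (25.5%, background 43.3%), a lower share than over all introns, and the member median of 0.32 lay beside 0.41. Both copies of RPL17, which lines the exit tunnel, led with 1.10 and 1.25 for RPL17B (1.17 ± 0.15, adjusted p = 7.04e-07) and 0.97 and 1.27 for RPL17A (1.12 ± 0.19). RPL43B came next with 0.84 and 1.32 (1.08 ± 0.20). RPL33B (0.54 ± 0.18) and RPL31A (0.61 ± 0.24) were the lowest that rose. The count was 5 without the second array and 29 with arrays weighted by spread.

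In mud1 the members' share was again below the background, with 1 of 47 introns raised (2.13%, background 25%) and a median of −0.08 beside 0.18 over all introns. The intron was RPL16A, at 0.52 and 0.94 (0.73 ± 0.21, adjusted p = 0.012), a call lost without either array. The exon probes of the members stood at a median of 0.26 beside 0.01 over all exon probes. The intron probes alone had a median of 0.20 beside 0.22 over all intron probes, with 4 members raised (8.51%, background 12.7%). With arrays weighted by spread 6 member introns rose, and against hsp104 0 did. In nam8, 0 of 47 rose and 0 fell (limma; 0 and 3 at an unadjusted p under 0.05; background 4.52%), with a median of −0.17. A direct comparison of mud1 with nam8 called 0 of 47 members (limma; 2 higher in mud1 and 0 lower at an unadjusted p under 0.05) and 2.37% of all introns, and 9 members with arrays weighted by spread.

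No member intron passed the test in 4 further deletions. Cus2 helps to fold the U2 snRNA, Ecm2 is a spliceosome protein tied to the pairing of U2 with U6, Snu40 is linked to the U5 snRNP, and Hsp104 is a chaperone outside the spliceosome. Limma called 0 of 47 member introns raised in ecm2 (background 3.98%), 0 of 47 in cus2 (background 0%), 0 of 45 in snu40 (background 0%) and 0 of 47 in hsp104 (background 0%), and 0 rose there at an unadjusted p under 0.05. At that unadjusted p 2 fell in ecm2, 1 in cus2 and 0 in snu40 and hsp104. With arrays weighted by spread 1 rose in snu40. At the intron probe alone 9 members rose in ecm2 (19.1%, background 12.9%). The exon probes also stood higher in ecm2, where 29 of 47 members rose (61.7%, background 24.2%) with a median of 0.38 beside 0.16. RPL29 (0.93 and 0.62; 0.78 ± 0.18) and RPL37B (0.86 and 0.44; 0.65 ± 0.16) rose most, and RPL2B (0.27 ± 0.10) and RPL24A (0.27 ± 0.10) least. The exon count was 14 with arrays centred on their exon probes, and 0 without either array (limma).

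Exon probes of members also fell in msl1, snu17, upf3 and brr1, in no larger a share than over all genes. In msl1 13 of 47 fell (27.7%, background 41%), in snu17 9 (19.1%, background 34.7%), in upf3 9 (19.1%, background 21.2%) and in brr1 4 (8.51%, background 40.7%). RPL16A was lowest in msl1 (−0.83 and −1.01; −0.92 ± 0.11) and in snu17 (−0.90 and −0.73; −0.82 ± 0.11). It was also the 1 member of 47 to fall in mud2 (−0.35 ± 0.11; 2.13%, background 13.7%), a call lost without either array, without the dye term and after centring, while 4 members fell with arrays weighted by spread. RPL19A, whose protein reaches from the exit rim to a bridge with the small subunit, was lowest in brr1 (−0.83 and −0.79; −0.81 ± 0.12). RPL2A came next there (−0.57 ± 0.12), and RPL2B (−0.32 ± 0.10) and RPL16A (−0.45 ± 0.11) were its mildest falls. RPL19A came next in msl1 (−0.50 ± 0.12) and RPL36A in snu17 (−0.51 ± 0.12). The mildest falls were RPL16B (−0.27 ± 0.10) and RPL21B (−0.29 ± 0.10) in msl1, and RPL35A (−0.34 ± 0.12) and RPL40B (−0.36 ± 0.13) in snu17. RPL16B (−0.52 ± 0.10) and RPL16A (−0.46 ± 0.11) fell most in upf3, and RPL2B (−0.31 ± 0.10) and RPL40A (−0.33 ± 0.12) least. In snu66 2 of 47 fell (4.26%, background 12.6%), RPL2A (−0.46 ± 0.12) and RPL19A (−0.40 ± 0.12), and 1 and 0 fell without the first and the second array and 0 without the dye term (limma). With arrays centred on their exon probes, 1 fell in msl1, 2 in snu17 and 3 in upf3, and with arrays weighted by spread 34, 14 and 30 did. Without the first and the second array, 1 and 1 fell in msl1, 5 and 2 in snu17, 0 and 2 in upf3 and 3 and 2 in brr1.

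Few junctions of members fell in the remaining mutants. RPL22A, whose protein is not essential in yeast, was the member with the most lowered junction indices, in 8 of 18 mutants. Such a count was not made over all junctions on the array. It was the 1 junction that fell in mud1 (2.17%, background 2.29%), at −0.35 and −0.56 (−0.46 ± 0.10, adjusted p = 0.0165). It was likewise the 1 junction that fell in upf3 (2.22%, background 1.84%), at −0.22 and −0.56 (−0.39 ± 0.10), and in snu17 (2.33%, background 5.74%), at −0.18 and −0.48 (−0.33 ± 0.10). In ecm2 2 of 45 junctions fell (4.44%, background 2.76%), RPL26A with −0.38 and −0.49 (−0.43 ± 0.12) and RPL22A with −0.29 and −0.58 (−0.43 ± 0.10). Falls of RPL22A in prp4-1a (−0.55 ± 0.10), gcr3 (−0.39 ± 0.10) and prp18 (−0.28 ± 0.10) complete its calls with prp17, and both of its arrays were below 0 in all 8 mutants. RPL13A was lowered with RPL32 in brr1 and with RPL36A in msl1. In brr1 2 of 44 fell (4.55%, background 10.7%), RPL32 with −0.32 and −0.46 (−0.39 ± 0.13) and RPL13A with −0.40 and −0.29 (−0.34 ± 0.10). In msl1 2 of 46 fell (4.35%, background 8.92%), RPL36A with −0.10 and −0.54 (−0.32 ± 0.10) and RPL13A with −0.35 and −0.28 (−0.31 ± 0.10). Each of these 6 counts was 0 without either array of its mutant and without the dye term (limma). With arrays weighted by spread they were 35 in mud1, 26 in upf3, 0 in snu17, 11 in ecm2, 9 in brr1 and 9 in msl1.

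**Figure D2:**
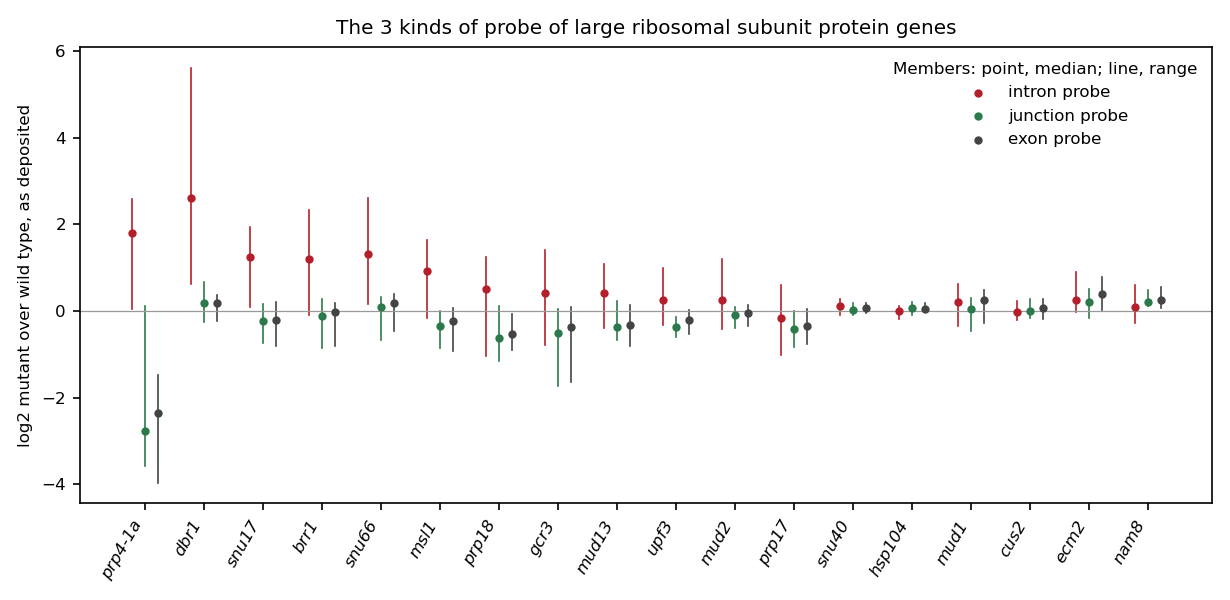
Median (point) and range (line) over members of the intron, junction and exon probes in each mutant, as log2 mutant over wild type on the deposited scale. In prp4-1a the medians stand at 1.80, −2.77 and −2.36, and in dbr1 the intron probes stand apart at 2.61.

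Gene by gene, each member intron rose in 3 to 13 of the 18 mutants. Counts over mutants of introns, exon probes or junctions were made for members alone. They cannot show a trait of members against the rest of the array. RPL16A rose in 13 mutants and had the highest mean rank among members over the mutants, 39.1 of 47, followed by RPL32 (34.3), RPL43B (33.3), RPL26B (33.0) and RPL39 (32.3). RPL16 protein is an early-binding protein of subunit assembly, and RPL26 and RPL39 belong to the exit tunnel region. The partner copies of RPL16A, RPL43B and RPL26B, namely RPL16B, RPL43A and RPL26A, had mean ranks of 24.2, 26.5 and 13.8. Their lower ranks follow from the choice of the members with the highest mean rank. RPL16A was also the member whose exon probe fell in most mutants, 10 of 18. The index subtracts that probe, so these counts are not independent of each other. At the intron probe alone RPL16A stood at 1.76 ± 0.18 in brr1, 1.33 ± 0.18 in snu17 and 1.12 ± 0.18 in gcr3.

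The lowest mean ranks belonged to RPL18B (9.6), RPL6B (11.7), RPL23A (12.2), RPL26A (13.8) and RPL37A (14.1). RPL18B rose in the fewest mutants, namely prp4-1a, dbr1 (2.31 and 3.24; 2.77 ± 0.21) and gcr3 (0.20 and 1.06; 0.63 ± 0.21). RPL6B rose in 4 mutants and RPL23A in 5. Where the partner copy was a member, its mean rank was 17.5 for RPL6A, 20.3 for RPL23B, 33.0 for RPL26B and 25.6 for RPL37B. That these rank higher follows from the choice of the 5 lowest.

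The single-copy genes have no partner whose RNA an exon probe could also read. RPL25, which docks the signal recognition particle at the exit, rose in 11 mutants, RPL32 and RPL39 in 10 each and RPL29 in 9. RPL39 read 5.13 and 4.28 in prp4-1a, 1.60 and 2.26 in dbr1, 1.74 and 2.03 in brr1 and 0.11 and 0.29 in prp17. RPL25 read 4.88 and 3.98 in prp4-1a, 2.83 and 3.70 in dbr1, 1.56 and 1.81 in brr1 and 0.53 and 0.66 in prp17. In RPL25 the 4 strains do not overlap, whereas in RPL39 dbr1 overlaps with brr1 and only prp4-1a lies above both.

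**Figure D3:**
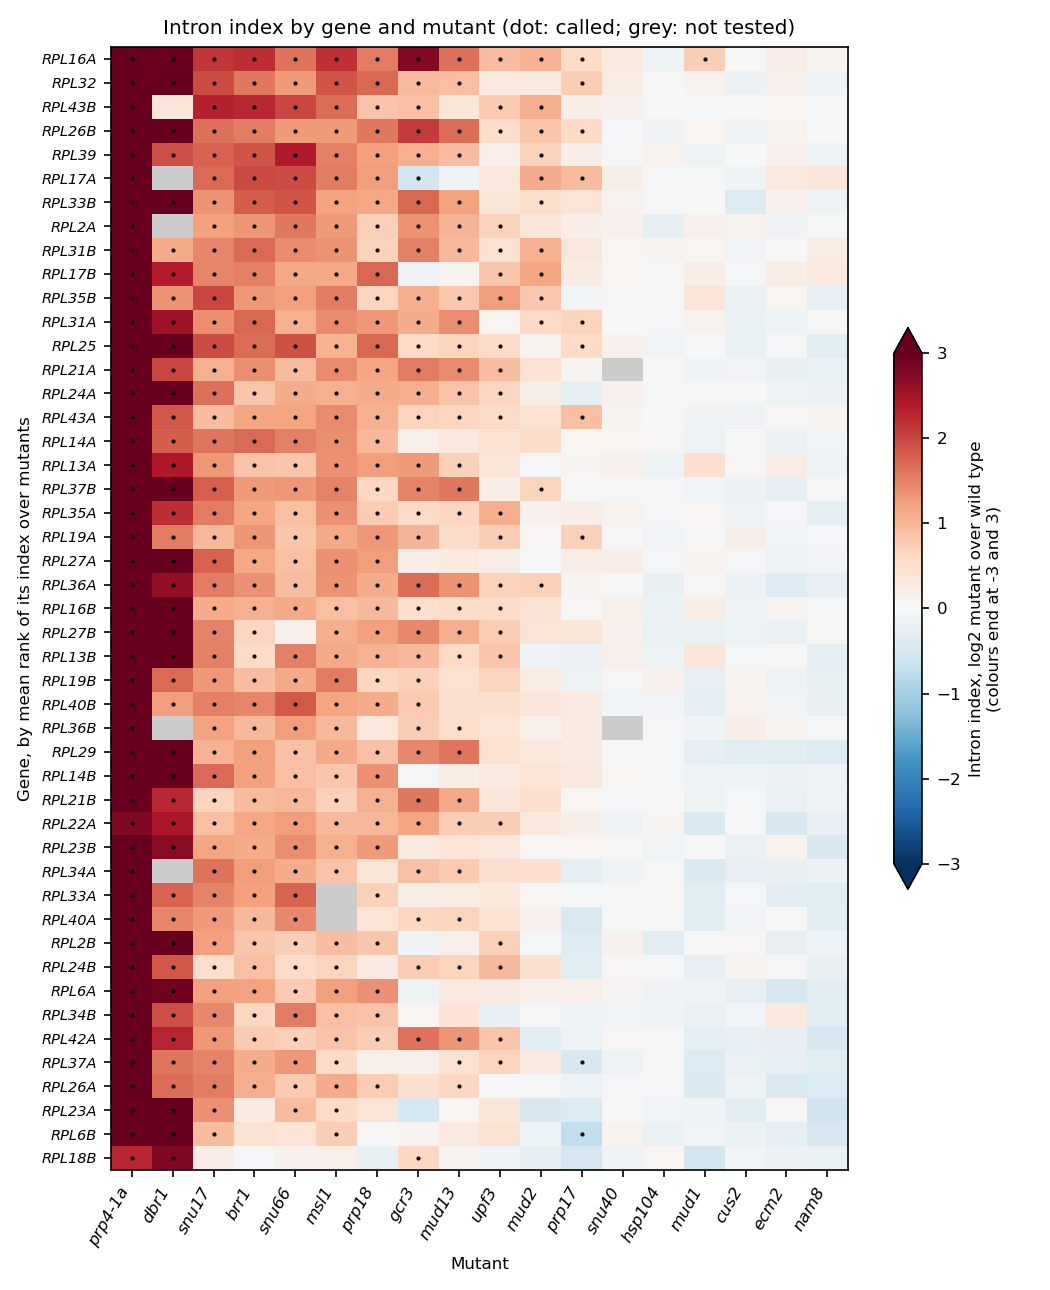
Intron index (colour, log2 mutant over wild type) of the 47 members in rows, by mean rank, and the 18 mutants in columns, by member median. Dots mark values that passed the test and grey cells were not tested; RPL16A at the top carries 13 dots and RPL18B at the bottom carries 3.

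The A and B copies were compared by the difference of their intron indices in each mutant. Among the 20 pairs, 116 of 352 tests called a difference, beside 247 of 752 over all copy pairs with introns on the array. Of the 116, 57 had A higher and 59 had B higher. Of the 20 pairs, 19 differed in at least 3 mutants, a count that was not made over all pairs. RPL21 differed in none (limma; in 1 mutant, msl1, at an unadjusted p under 0.05). Of the 116 calls, 103 were also made between the intron probes alone in the same direction and 0 in the other, and 33 came with a called difference between the exon probes. Copies can share exon sequence, so the exon probe of one may read the other, and the probe sequences were not used here.

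Counts by mutant are given with the background in brackets, over those of the 44 copy pairs on the array that were tested in that mutant. Of 20 pairs, 13 differed in prp18 (71.4%), 13 in snu66 (48.8%), 12 in gcr3 (67.4%), 11 in prp17 (48.8%) and 10 in brr1 (40.5%). In dbr1 13 of 16 differed (79.4%). Fewer differed in mud2 (9, 41.9%), mud13 (8, 51.2%), msl1 (8 of 18, 28.9%), prp4-1a (7, 45.5%), snu17 (4, 26.2%), upf3 (4, 33.3%), ecm2 (2, 4.65%) and mud1 (2, 9.3%). Limma called 0 in cus2 (0%), hsp104 (0%), nam8 (0%) and snu40 (0%), against 3 pairs in these strains together at an unadjusted p under 0.05. Without 1 array of the mutant the count went to 5 and 6 in snu66, 6 in brr1 (first array), 6 in prp17 (second), 2 and 4 in mud2, 5 in mud13 (first), 5 and 2 in msl1, 0 and 1 in upf3, and 0 in ecm2 and mud1 (limma). With arrays weighted by spread it was 4 in prp4-1a, 15 in mud2, 7 in mud1, 11 in upf3, 4 in ecm2 and 2 in nam8.

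**Figure D4:**
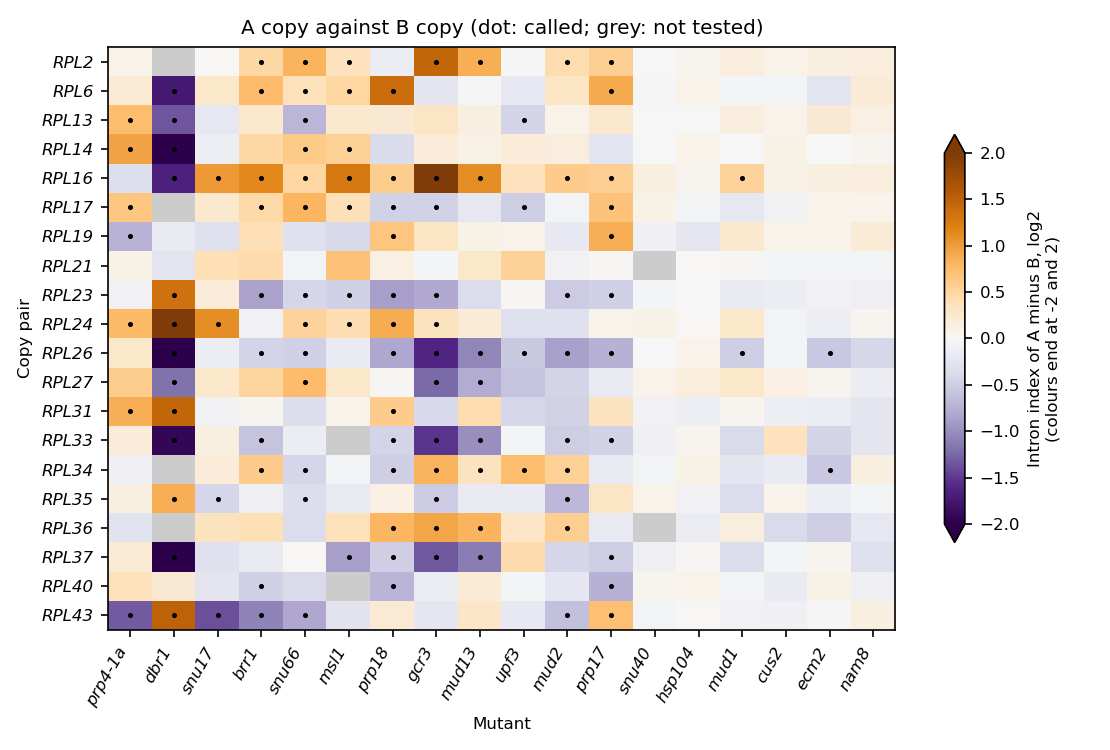
Intron index of the A copy minus that of the B copy (colour, log2) for the 20 pairs in rows and the 18 mutants in columns. Dots mark differences that passed the test and grey cells were not tested; RPL26 is negative in all its 11 called cells, and the columns of snu40, hsp104, cus2 and nam8 hold no dots.

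Among proteins of the exit tunnel and its rim, RPL26 showed the most uniform difference between copies. RPL26B stood above RPL26A in 11 mutants and below it in 0. In gcr3 the A copy read 0.09 and 0.86 and the B copy 1.80 and 2.38, so the copies do not overlap, and A minus B was −1.62 ± 0.15 (adjusted p = 4.55e-10). The difference was −1.05 in mud13, −0.87 in mud2, −0.82 in prp18, −0.74 in prp17, −0.54 in upf3, −0.55 in ecm2, −0.49 in mud1, −0.48 in snu66 and −0.44 in brr1. It was widest in dbr1, where A read 1.41 and 1.95 and B 4.77 and 4.63 (−3.02 ± 0.15). Exon probes of the copies differed by the test in 7 of these 11 mutants, and intron probes alone in 8.

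RPL17 and RPL35 also lie along the exit. RPL17A stood above RPL17B in prp4-1a (0.65 ± 0.14), snu66 (0.80 ± 0.14), prp17 (0.69 ± 0.14), brr1 (0.46 ± 0.14) and msl1 (0.39 ± 0.14), and below it in upf3 (−0.51 ± 0.14), gcr3 (−0.47 ± 0.14) and prp18 (−0.46 ± 0.14). The direction of this pair thus turned between prp17 and prp18. RPL35B stood above RPL35A in mud2 (−0.67 ± 0.13), gcr3 (−0.52 ± 0.13), snu17 (−0.44 ± 0.13) and snu66 (−0.33 ± 0.13), and below it in dbr1 (0.86 ± 0.13). RPL31A stood above RPL31B in dbr1 (1.44 ± 0.21), prp4-1a (0.87 ± 0.21) and prp18 (0.60 ± 0.21). RPL19 differed in prp17 (0.86 ± 0.18) and prp18 (0.66 ± 0.18) with A higher, and in prp4-1a (−0.73 ± 0.18) with B higher.

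In RPL16, which binds early in assembly, the A copy was mostly the higher one, unlike in RPL26. RPL16A stood above RPL16B in 10 mutants. In gcr3 the A copy read 2.46 and 3.07 and the B copy 0.13 and 0.89, a difference of 2.26 ± 0.16 (adjusted p = 9.85e-12) with no overlap. The difference was 1.29 in msl1, 1.15 in brr1, 1.11 in mud13, 1.02 in snu17, 0.61 in mud2, 0.59 in prp18, 0.57 in prp17, 0.52 in mud1 and 0.49 in snu66. In dbr1 it turned, with A at 3.0 and 2.93 and B at 4.11 and 5.16 (−1.67 ± 0.16). Exon probes differed by the test in 9 of these 11 mutants, and the intron probes alone in 7, so part of the difference in RPL16 is carried by the exon probes.

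**Figure D5:**
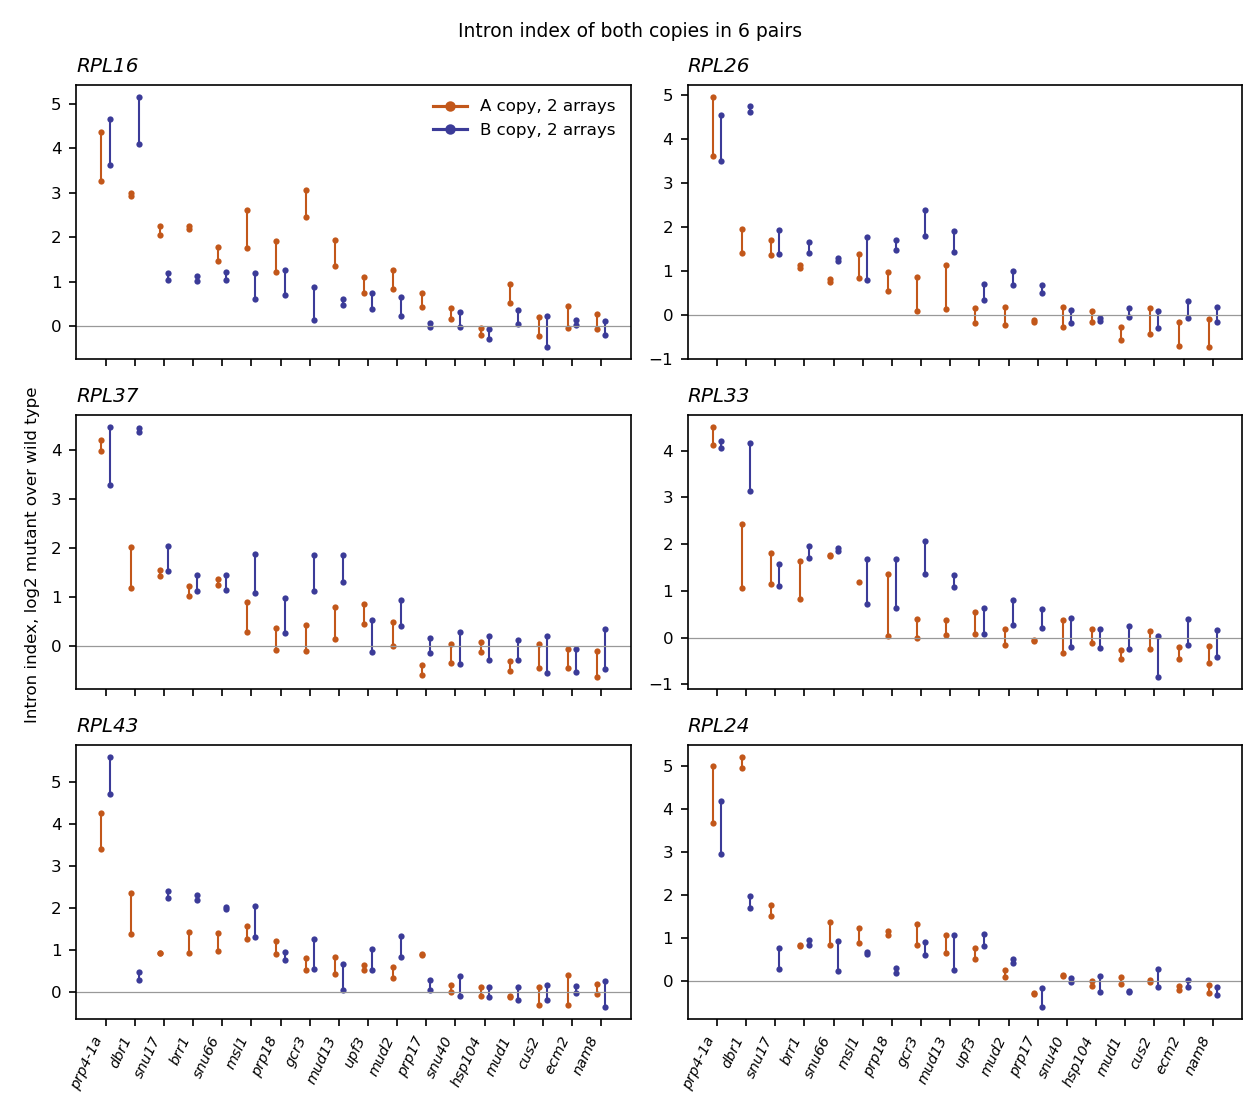
Intron index (log2 mutant over wild type) of the A and B copies of 6 pairs on both arrays of each mutant, joined by a line. RPL16A lies above RPL16B in gcr3 and below it in dbr1, RPL26B, RPL37B and RPL33B lie above their A copies in gcr3 and dbr1, and RPL43 and RPL24 part in dbr1.

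Beside RPL16 and RPL26, the copies of RPL33, RPL37, RPL2, RPL36, RPL27 and RPL34 differed in both cap-binding mutants, which share the wild type strain BY4741 and are given side by side. RPL33B stood above RPL33A (A minus B −1.52 ± 0.15 in gcr3 and −0.99 ± 0.15 in mud13). RPL37B stood above RPL37A (−1.33 ± 0.18 in gcr3 and −1.12 ± 0.18 in mud13). RPL2A, a copy of the protein next to the peptidyl transferase centre, read 1.12 and 1.59 in gcr3 while RPL2B read −0.33 and 0.11 (1.47 ± 0.11), and in mud13 the difference was 0.87 ± 0.11. RPL36A was above RPL36B (0.93 ± 0.17 and 0.82 ± 0.17), RPL27B above RPL27A (−1.24 ± 0.29 and −0.79 ± 0.29) and RPL34A above RPL34B (0.82 ± 0.13 and 0.33 ± 0.13).

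The debranching mutant had the widest differences between copies of all mutants, in both directions. RPL24A, of the bridge to the small subunit, read 4.96 and 5.20 in dbr1 and RPL24B 1.99 and 1.71 (3.23 ± 0.12, adjusted p = 7.64e-18). RPL37A read 1.19 and 2.02 and RPL37B 4.46 and 4.38 (−2.81 ± 0.18). In these pairs the copies do not overlap. B also stood above A in RPL14 (−2.07 ± 0.20), RPL33 (−1.91 ± 0.15), RPL6 (−1.74 ± 0.14), RPL13 (−1.35 ± 0.16) and RPL27 (−1.19 ± 0.29), and A above B in RPL43 (1.5 ± 0.18) and RPL23 (1.34 ± 0.16). The arrays of dbr1 lay 4.69 times as far apart at copy differences as those of the median mutant.

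RPL43, RPL23 and RPL6, like RPL16, RPL35 and RPL14, differed in dbr1 in the direction opposite to most of their other calls. RPL43B stood above RPL43A in snu17 (−1.38 ± 0.18), prp4-1a (−1.32 ± 0.18), brr1 (−1.07 ± 0.18), snu66 (−0.81 ± 0.18) and mud2 (−0.62 ± 0.18), and below it in prp17 (0.73 ± 0.18) as in dbr1. RPL23B stood above RPL23A in prp18 (−0.88 ± 0.16), brr1 (−0.85 ± 0.16), gcr3 (−0.80 ± 0.16), mud2 (−0.52 ± 0.16), msl1 (−0.48 ± 0.16), prp17 (−0.47 ± 0.16) and snu66 (−0.43 ± 0.16). RPL6A stood above RPL6B in prp18 (1.38 ± 0.14), prp17 (0.90 ± 0.14), brr1 (0.75 ± 0.14), msl1 (0.49 ± 0.14) and snu66 (0.37 ± 0.14). RPL6 protein is placed early in subunit assembly. With dbr1 left out, 13 pairs had all their calls in 1 direction and 6 had calls in both, against 8 and 11 with dbr1.

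The remaining differences were fewer or smaller. RPL24A stood above RPL24B also in snu17 (1.11 ± 0.12), prp18 (0.88 ± 0.12), prp4-1a (0.77 ± 0.12), snu66 (0.52 ± 0.12), msl1 (0.41 ± 0.12) and gcr3 (0.33 ± 0.12). In RPL24 and RPL2 the A copy was the higher one in every call of the index. RPL2 was not tested in dbr1, where the 1 array that measured both copies read −3.77, with B higher. At the intron probes alone RPL2B was called above RPL2A in prp18 (−0.53) and prp4-1a (−0.38), and RPL24B above RPL24A in upf3 (−0.47). RPL2A stood above RPL2B in snu66 (0.82 ± 0.11), prp17 (0.57 ± 0.11), brr1 (0.48 ± 0.11), mud2 (0.43 ± 0.11) and msl1 (0.35 ± 0.11). RPL14A stood above RPL14B in prp4-1a (0.94 ± 0.20), snu66 (0.61 ± 0.20) and msl1 (0.55 ± 0.20), and RPL13 differed in prp4-1a (0.74 ± 0.16), snu66 (−0.69 ± 0.16) and upf3 (−0.44 ± 0.16). RPL36A was higher in prp18 (0.80 ± 0.17) and mud2 (0.57 ± 0.17), RPL27A in snu66 (0.76 ± 0.29), and the B copy of RPL40 in prp17 (−0.74 ± 0.17), prp18 (−0.70 ± 0.17) and brr1 (−0.48 ± 0.17).

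RPL33, RPL34 and RPL37 complete the account of the copies. RPL33B was higher also in brr1 (−0.59 ± 0.15), mud2 (−0.51 ± 0.15), prp17 (−0.46 ± 0.15) and prp18 (−0.45 ± 0.15). RPL37B was higher in msl1 (−0.88 ± 0.18), prp17 (−0.50 ± 0.18) and prp18 (−0.48 ± 0.18). The B copy was higher in all calls of RPL33 and RPL37, whereas RPL34 went both ways. RPL34A was higher in upf3 (0.74 ± 0.13), brr1 (0.60 ± 0.13) and mud2 (0.55 ± 0.13), and RPL34B in ecm2 (−0.55 ± 0.13), prp18 (−0.49 ± 0.13) and snu66 (−0.43 ± 0.13). Of all copy pairs with introns on the array, 247 of 752 tests called a difference beside the 116 of 352 among the large subunit pairs.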

How the data were processed

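The authors deposited 1 log2 ratio per spot for 36 two-colour arrays, each on a slide of its own. Base 2 was read from recurring values that are logs of ratios of small whole numbers. For scaling, centring and background treatment a description was not given in the sources used here. The direction was taken as likely channel 2 over channel 1. Symbols come from the platform annotation. The role of each probe (junction, intron, exon) was inferred from the order of probes of a gene, and the spot order of the second part of the array is mirrored. Exact zeros were treated as missing, and usable spots with a symbol numbered 2127 to 2792 of 2896 per array, with array medians of −0.29 to 0.54. No recentring was applied. The 4 spots of a probe were averaged, and ratios were turned to mutant over wild type.

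Limma 3.58.1 (lmFit and eBayes, R 4.3.3) was fitted to all features over all 36 arrays, with 1 coefficient per mutant and a dye term, so that all mutants share 1 spread per feature. P-values were adjusted by Benjamini-Hochberg within a mutant over all features, at 0.05. A feature was tested where both arrays of the mutant gave a value. The fit was tested on simulated data with known changes. The simulated noise had 1 spread per feature on all arrays. That test therefore could not show how mutants whose arrays lie further apart affect the fit. Of 141 member probes, 127 were measured on all arrays, and no filter on low values was used. Members, lists and tests were chosen with earlier results of these data known. Named for each mutant were the 3 highest and 2 lowest called intron indices, the 2 lowest called junction indices and the 2 lowest and 2 highest called exon values. Also named were the 5 members with the highest and the 5 with the lowest mean rank, the single-copy genes, pairs that differ in 3 or more mutants, and the 3 widest called differences of each contrast. Members named for not passing, RPL26B for its junction and RPL21 were chosen after their values were seen. Alternatives were other centring, no dye term, the intron probe alone, the median of spots, zeros kept, arrays weighted by the spread within each mutant, hsp104 as the reference and each array left out. Splice site and probe sequences were not used here.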

Additional observations from a re-analysis of the deposited data

Results flagged for a closer look

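Differences between mutants were tested as contrasts of intron indices in limma, adjusted over all introns. Between prp18 and prp17, 25 of 47 member introns differed (53.2%, background 36.4%), all higher in prp18. Over all introns, 71 were higher in prp18 and 1 was lower. RPL17B was apart by 1.47 ± 0.21, RPL24A by 1.41 ± 0.28 and RPL23B by 1.23 ± 0.34. Between gcr3 and mud13, 1 member differed (2.13%, background 11.8%), RPL16A, which was 1.11 ± 0.30 higher in gcr3. Between snu66 and snu17, 1 member differed (2.13%, background 9.23%), RPL27B, at −1.35 ± 0.28 for snu66 minus snu17. All 3 counts change when single arrays are left out, from 2 to 16 for prp18 and prp17, 0 to 3 for gcr3 and mud13 and 0 to 1 for snu66 and snu17. With the intron probe alone 10 members differed between snu66 and snu17 and 0 between gcr3 and mud13, and with arrays weighted by spread 4 and 0 did and 43 between prp18 and prp17.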

How the results depend on the processing

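Each choice was changed alone. Centring cancels in the junction index, so the centred alternatives of junction counts had to equal the count reported. They are included in the numbers that follow and are no check. Of 495 alternatives of the 64 counts, 322 lay within 1.5 times the count reported, and of 1248 alternatives of 161 named values, 974 kept direction and call, 273 kept direction but lost the call and 1 turned: RPL37A in mud13, whose intron index was −0.031 without the first array and 0.96 without the second. The cause of these moves was not tested, except that leaving out an array leaves a mutant with a single one, assumed to vary like the others, and so a wider error. The pairing of a mutant with the wild type on the same array is already held in each log ratio. No further pairing between arrays was used, because replicate numbers only name the channel order, which the dye term holds. Precision is limited by the 2 arrays per mutant, and signal over background is unknown since the values are ratios.

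With each array weighted by the spread within its mutant, raised introns numbered 6 in mud1, 14 in mud13, 29 in mud2, 2 in nam8, 14 in prp17, 1 in snu40 and 40 in upf3. Lowered introns numbered 2 in gcr3 and 9 in prp17. Lowered junctions numbered 5 in prp4-1a, 27 in gcr3, 19 in prp17, 16 in prp18, 9 in brr1, 11 in ecm2, 9 in msl1, 35 in mud1, 0 in snu17 and 26 in upf3. Lowered exon probes numbered 0 in mud13, 34 in msl1, 14 in snu17, 30 in upf3 and 4 in mud2. Differing copy pairs numbered 4 in prp4-1a, 4 in ecm2, 7 in mud1, 15 in mud2, 2 in nam8 and 11 in upf3. Introns that differ numbered 43 in prp18 minus prp17, 0 in gcr3 minus mud13, 9 in mud1 minus nam8 and 4 in snu66 minus snu17. With the intron probe alone, raised introns numbered 9 in ecm2, 4 in mud1, 3 in nam8 and 2 in prp17. Lowered introns numbered 3 in gcr3 and 12 in prp17. Differing copy pairs numbered 12 in prp4-1a, 0 in mud1, 12 in snu17 and 9 in upf3. Introns that differ numbered 0 in gcr3 minus mud13 and 10 in snu66 minus snu17. With hsp104 as the reference, raised introns numbered 0 in mud1, 19 in mud13, 2 in prp17 and 9 in upf3. Without the dye term, raised introns numbered 5 in prp17. Lowered introns numbered 1 in prp17. Lowered junctions numbered 2 in gcr3, 1 in prp17, 3 in prp18, 0 in brr1, 0 in ecm2, 0 in msl1, 0 in mud1, 0 in snu17 and 0 in upf3. Lowered exon probes numbered 17 in prp17, 6 in msl1, 3 in snu17, 3 in upf3, 2 in brr1, 0 in mud2 and 0 in snu66. Raised exon probes numbered 16 in ecm2. Introns that differ numbered 15 in prp18 minus prp17 and 0 in gcr3 minus mud13. With values of exactly 0 kept, raised introns numbered 2 in mud1. Lowered junctions numbered 0 in brr1, 1 in ecm2, 1 in msl1 and 0 in upf3. Differing copy pairs numbered 0 in ecm2, 4 in msl1, 0 in mud1 and 7 in snu66. With the median of spots, lowered introns numbered 1 in prp17. Lowered junctions numbered 1 in ecm2, 0 in msl1 and 0 in snu17. With arrays centred on their exon probes, lowered exon probes numbered 11 in gcr3, 6 in mud13, 3 in prp17, 1 in msl1, 2 in snu17, 3 in upf3 and 0 in mud2. Raised exon probes numbered 14 in ecm2. With arrays centred on all probes, lowered exon probes numbered 14 in gcr3, 13 in mud13, 2 in prp17, 1 in msl1, 5 in snu17, 3 in upf3 and 0 in mud2. Raised exon probes numbered 9 in ecm2.

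Without 1 array at a time, raised introns ranged over 18 to 32 in gcr3, 0 in mud1, 13 to 31 in mud13, 5 to 8 in mud2, 1 to 2 in prp17 and 4 to 8 in upf3. Lowered introns ranged over 0 to 1 in gcr3 and 0 in prp17. Lowered junctions ranged over 0 in gcr3, 0 in prp17, 0 to 2 in prp18, 0 in brr1, 0 in ecm2, 0 in msl1, 0 in mud1, 0 in snu17 and 0 in upf3. Lowered exon probes ranged over 9 to 26 in gcr3, 7 to 38 in mud13, 3 to 10 in prp17, 19 to 40 in prp18, 1 in msl1, 2 to 5 in snu17, 0 to 2 in upf3, 2 to 3 in brr1, 0 in mud2 and 0 to 1 in snu66. Raised exon probes ranged over 0 in ecm2. Differing copy pairs ranged over 6 to 8 in brr1, 0 in ecm2, 2 to 5 in msl1, 0 in mud1, 5 to 6 in mud13, 2 to 4 in mud2, 6 to 9 in prp17, 5 to 6 in snu66 and 0 to 1 in upf3. Introns that differ ranged over 2 to 16 in prp18 minus prp17, 0 to 3 in gcr3 minus mud13 and 0 to 1 in snu66 minus snu17.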

Other observations

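Introns of genes for the small ribosomal subunit, which carries the decoding site, give a scale for those of the large subunit. Their median intron index was 2.18 in dbr1, beside 2.46 for the large subunit members. It was 1.39 in snu17, 1.35 in brr1, 1.01 in prp18, 1.01 in gcr3, 0.26 in prp17 and 0.00 in mud1. The corresponding medians of the large subunit members were 1.46, 1.20, 1.00, 0.78, 0.08 and −0.08. For introns of the RPL genes that the rule leaves out, the median was 0.47 in brr1, 0.41 in snu66, 0.09 in prp18 and −0.59 in prp17. Members stood at 1.20, 1.16, 1.00 and 0.08 there, so they do not stand for all RPL introns. The genes left out had the higher median in upf3 (0.66 beside 0.49), nam8 and hsp104. The differences between these medians were not tested.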
